A study of Mus musculus with 4 samples.

Results

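The genes described here are 10 liver genes that take up, store, export or sense iron, or make and break down heme: Tfrc, Tfr2, Trf, Fth1, Ftl1, Slc40a1, Ireb2, Alas1, Fech and Hmox1. They were chosen by symbol, 10 of the 48709 genes in the deposited count files, and all 10 were among the 13699 genes with enough reads to be tested. Liver mRNA of untreated C57BL/6 mice was sequenced in 4 libraries, 2 from WT mice and 2 from DDI2-KO mice, whose genotype the labels give as DDI2-/-. WT mice were littermates that carry the floxed Ddi2 alleles (Ddi2 flox/flox) and no Cre, and DDI2-KO mice carry the same floxed alleles with Cre driven by the albumin promoter, which is active in hepatocytes. Mice of both sexes, 6 to 12 weeks old, were used, and the sex and age behind each library are not given in the labels. DDI2 is an aspartic protease that cleaves and activates the transcription factor NRF1. The comparison of genotypes asks which liver transcripts differ when hepatocytes lack it.

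Transferrin carries iron in plasma, transferrin receptors bring it into cells, ferritin stores it as a shell of heavy and light chains, and ferroportin is the exporter. Iron regulatory proteins bind a stem-loop in mRNA, the iron-responsive element, when iron is scarce. Binding near the start of an mRNA blocks its translation, and binding behind the coding sequence protects the mRNA from decay. The liver makes most plasma transferrin, is a main iron store of the body, and makes much heme for its cytochromes.

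The stem-loops are shown because they are the sequence by which iron acts on these mRNAs. A search of GENCODE M21 transcripts (GRCm38) for an unpaired C, 5 bases, the 6-base loop CAGTGN and 5 bases that pair with the first 5, with G-T pairs allowed, found them in 4 of the 10 genes. The loop is in capitals and all sequences run 5′ to 3′ on the mRNA strand. In the 5′ UTR, Fth1 held it in exon 1 at chr19:9982732-9982761 (plus strand), Ftl1 in exon 1 at chr7:45459778-45459807 (minus strand) and Slc40a1 in exon 1 at chr1:45925464-45925493 (minus strand). Tfrc held 4 in the 3′ UTR, all in exon 19 on the plus strand, at chr16:32631219-32631248, chr16:32631598-32631627, chr16:32631663-32631692 and chr16:32631710-32631739.
Fth1: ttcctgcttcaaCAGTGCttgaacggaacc
Ftl1: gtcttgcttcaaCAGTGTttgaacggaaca
Slc40a1: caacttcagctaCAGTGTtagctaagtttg
Tfrc 1: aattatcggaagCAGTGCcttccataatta
Tfrc 2: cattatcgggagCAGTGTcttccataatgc
Tfrc 3: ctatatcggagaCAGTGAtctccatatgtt
Tfrc 4: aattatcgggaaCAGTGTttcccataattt
Of 21901 protein-coding genes, 294 (1.34%) held such a match anywhere in the transcript. By part, 31 (0.142%) held it in the 5′ UTR, 140 (0.639%) in the coding sequence and 129 (0.589%) in the 3′ UTR. The 5 paired bases on each side of the loop are the same in Fth1 and Ftl1, whereas the 4 elements of Tfrc have 4 different stems. In the RefSeq promoters of GRCm38 (250 bases before to 50 after a start), 6 of the 10 genes had an entry, Alas1, Fth1, Ftl1, Ireb2, Tfr2 and Tfrc. The letters TGACNNNGC, the core of the antioxidant response element to which factors of the NRF family bind, were found on either strand in 0 of their 11 promoters and in 12.4% of all 32851. At that share, 11 promoters are too few to show a lack of the letters. Sequence outside this window, and the promoters of the genes without an entry, were not searched.

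None of the 10 genes passed the test between genotypes. With edgeR's quasi-likelihood test and Benjamini-Hochberg adjustment over all tested genes, 346 of 13699 genes (2.53%) had an adjusted p under 0.05, and 0 of the 10 were among them. At an unadjusted p under 0.05 there was 1, Trf, against 23.5% of all genes tested. DESeq2 called 1 of the 10, also Trf, against 6.86% of all genes. The median log2 fold change (DDI2-KO minus WT) of the 10 was 0.06, with 6 above and 4 below 0, and that of all tested genes was -0.01. The median size of the log2 fold change, without its sign, was 0.21 for the 10 and 0.30 for all genes. The DDI2-KO libraries were both higher than either WT library in 3 of the 10 (28.0% of all genes tested), and both lower in 1 of the 10 (27.7% of all genes tested). With 2 libraries against 2, an exact permutation test of a single gene cannot give a two-sided p below 0.333, so no such p is given.

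**Figure D1:**
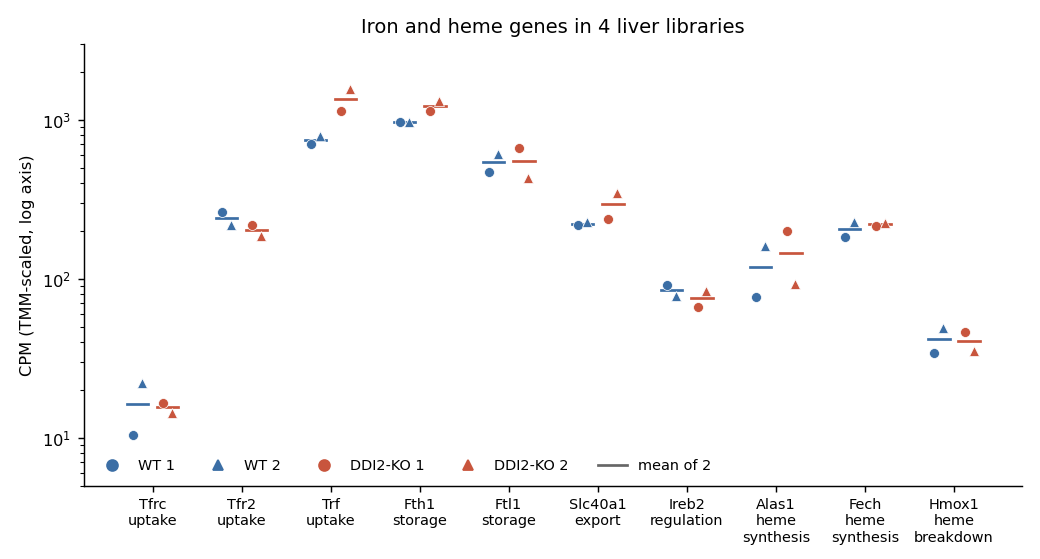
Level of each gene in the 4 libraries, as CPM on a log axis, with circles for library 1, triangles for library 2, WT in blue and DDI2-KO in red, and a bar at the mean of 2. Trf stands apart between groups, at 700 and 788 CPM in WT and 1135 and 1553 CPM in DDI2-KO, while Alas1 and Tfrc vary within WT by 2.10 and 2.11 times.

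Reads on genes ranged from 22501208 to 34109018 a library, with fewer in the 2 labelled DDI2-KO than in either WT library, and each of the 10 genes had at least 331 reads in every library. Levels are given as CPM, the reads of a gene relative to the TMM-scaled size of its library. The targeted gene, Ddi2, was at 141 and 123 CPM in WT and at 157 and 164 CPM in the libraries labelled DDI2-KO. The whole-gene count was thus not lower there. It also holds reads of exons outside the floxed part, whose share was not measured here, so it does not check the labels. Hepatocyte markers dominated all libraries, with 0 of 10 tested past an adjusted p of 0.05 in edgeR and a summed level of 189900 to 213300 CPM in WT and 177000 to 179400 CPM in DDI2-KO. The libraries labelled DDI2-KO also differed from each other by GC content: across genes, which are not independent replicates, Spearman's rho between GC content and the log2 ratio of library 2 to 1 was -0.48, against 0.07 for the WT pair.

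Trf encodes transferrin (ENSMUSG00000032554, chr9:103204001-103230444 of GRCm38, minus strand, 17 exons). In WT 23529 and 24347 reads fell on it, and in DDI2-KO, although these libraries were sequenced less deeply, 29382 and 35696 reads. Scaled, it was at 700 and 788 CPM in WT (744 ± 62.4, SD, n = 2) and at 1135 and 1553 CPM in DDI2-KO (1344 ± 296, SD, n = 2). The lower DDI2-KO library was above the higher WT library. The log2 fold change was 0.85 (standard error 0.21, 95% interval 0.38 to 1.33), or 1.81 times, with an adjusted p of 0.0668 in edgeR, which missed the threshold. At an adjusted p under 0.1, a looser limit, Trf was the 1 gene of the 10 called, against 9.35% of all genes. The adjusted p was 0.00372 in DESeq2 and 0.00288 in edgeR without the filter on low counts, and over all 15 alternatives it ran from 0.00288 to 0.235. In limma, the test the study used, the adjusted p was 0.0796 (limma-voom) and 0.0858 (limma-trend). With offsets for GC content and transcript length, chosen after seeing the data, the log2 fold change was 0.73 (edgeR adjusted p of 0.0814). Leaving out 1 library at a time gave log2 fold changes of 0.62 to 1.07, the lowest without DDI2-KO replicate 2.

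The Trf count has a limit in the annotation. Of the bases of its principal transcript, 82.0% lie in same-strand exons of Gm20425, a readthrough gene with 0 reads in all 4 libraries. A read that lies in both genes can be set aside as ambiguous by the counting program. Gm20425 has its own entry among the counted genes, so the annotation used for counting held it. The extent of its exons in that release is not given in the sources used here. Ambiguous reads, relative to reads on genes, made up 2.50% and 2.54% in WT and 3.49% and 3.66% in DDI2-KO. Their part in the Trf values was not tested. In bulk liver, more cells of a type and more RNA per cell cannot be told apart, for Trf or for any other gene here.

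The transferrin receptors showed no call. Tfrc encodes the receptor found on most cells (ENSMUSG00000022797, chr16:32608920-32632794, plus strand), and its mRNA carries the 4 stem-loops of the 3′ UTR printed above. It was at 10.5 and 22.0 CPM in WT and at 16.7 and 14.4 CPM in DDI2-KO, so both DDI2-KO libraries lay between the WT libraries. The log2 fold change was -0.06 (95% interval -0.87 to 0.74, edgeR adjusted p of 0.932). Its sign rested on single libraries, with -0.50 to 0.57 when each was left out in turn. Tfr2 encodes the liver receptor that senses iron-loaded transferrin (ENSMUSG00000029716, chr5:137569840-137587481, plus strand). It was at 264 and 218 CPM in WT and at 217 and 187 CPM in DDI2-KO. The groups did not overlap, but WT library 2 and DDI2-KO library 1 were nearly equal, and the log2 fold change of -0.26 (95% interval -0.68 to 0.17) had an edgeR adjusted p of 0.442.

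The ferritin chains store iron. Fth1, the heavy chain with the ferroxidase site (ENSMUSG00000024661, chr19:9980598-9985098, plus strand), was at 973 and 965 CPM in WT and at 1133 and 1307 CPM in DDI2-KO. WT libraries were close to each other and both DDI2-KO libraries were higher, with a log2 fold change of 0.33 (95% interval -0.07 to 0.73, edgeR adjusted p of 0.286). Of its stretches of 50 bases, 6.59% also occur in the pseudogene Gm6977. Ftl1, the light chain (ENSMUSG00000050708, chr7:45457944-45459884, minus strand), was at 471 and 607 CPM in WT and at 669 and 431 CPM in DDI2-KO. The DDI2-KO libraries thus held both the highest and the lowest value, and the log2 fold change was 0.03 (95% interval -0.54 to 0.60, edgeR adjusted p of 0.959).

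The Ftl1 count is uncertain, since 90.6% of its 50-base stretches also occur in 17 other annotated genes, processed pseudogenes and miRNA genes among them. The closest, Ftl1-ps1, shares 73.4% of the stretches and had between 2 and 7 reads a library. Gm22133 and Gm10252, also among the 17, are annotated over Ftl1 itself. Gm22133 covers 11.3% of the principal transcript on the same strand, and Gm10252 covers 36.7% on the other strand. Reads there can be set aside as ambiguous, for Gm10252 depending on the strand setting, which is not given. Reads that aligned to more than 1 place were not assigned to any gene, and relative to reads on genes they amounted to 65.8% and 51.8% for WT and to 49.2% and 47.3% for DDI2-KO. The part of either kind of read in the Ftl1 values was not tested. As counted, reads on Fth1 were 2.07 and 1.59 times those on Ftl1 in WT and 1.69 and 3.03 times in DDI2-KO, so the ratio of chains overlapped between groups and varied most within DDI2-KO. Ftl1 also had the highest GC content of the 10 genes (58.1%), and it differed by -0.63 on the log2 scale between DDI2-KO library 2 and library 1. Tfr2, with a GC content of 57.8%, differed by -0.22, and Alas1, with 53.0%, by -1.10. The part of GC content in these differences was not tested.

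Slc40a1 encodes ferroportin, the only known iron exporter (ENSMUSG00000025993, chr1:45908068-45926523, minus strand). It was at 218 and 228 CPM in WT and at 239 and 348 CPM in DDI2-KO. Both DDI2-KO libraries were above WT, library 1 by little, and the log2 fold change was 0.40 (95% interval -0.09 to 0.89, edgeR adjusted p of 0.298). Without DDI2-KO replicate 2 it was 0.11, the lowest of the values with 1 library left out, which reached 0.65. Ferroportin is abundant in Kupffer cells as well as in hepatocytes, and Kupffer cell markers summed to 1061 and 880 CPM in WT and to 1120 and 910 CPM in DDI2-KO, with 0 of 12 past an adjusted p of 0.05 in edgeR. The sum holds markers with log2 fold changes of both signs, from 0.58 for Adgre1 (edgeR adjusted p of 0.0744) to -0.72 for C1qa (0.161). Both DDI2-KO libraries were higher than WT in 3 of the 12 (25%, against 28.0% of all genes tested). Both were lower in 5 of the 12 (41.7%, against 27.7% of all genes tested). The sum thus does not fix the Kupffer cell content. Its part in the Slc40a1 values was not tested. Ireb2, which encodes iron regulatory protein 2 (ENSMUSG00000032293, chr9:54863789-54912530, plus strand), was at 91.6 and 77.4 CPM in WT and at 66.6 and 83.9 CPM in DDI2-KO. The groups overlapped, and the log2 fold change was -0.17 (95% interval -0.59 to 0.25, edgeR adjusted p of 0.628). With offsets for GC content and transcript length, an alternative chosen after seeing the data, it was 0.14.

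The heme genes did not separate the genotypes. Alas1, the rate-limiting enzyme of liver heme synthesis (ENSMUSG00000032786, chr9:106233455-106248654, minus strand), was at 76.7 and 161 CPM in WT and at 199 and 93.0 CPM in DDI2-KO. The high and low libraries of each genotype differed by 2.10 and 2.14 times, so the log2 fold change of 0.30 had the widest interval of the 10 genes (-1.08 to 1.67, edgeR adjusted p of 0.779). Fech, ferrochelatase, which inserts iron into the heme ring (ENSMUSG00000024588), was at 184 and 227 CPM in WT and at 216 and 224 CPM in DDI2-KO. Its DDI2-KO libraries lay between the WT libraries (log2 fold change 0.10, 95% interval -0.32 to 0.52, edgeR adjusted p of 0.781). Hmox1, the inducible heme oxygenase that frees iron from heme (ENSMUSG00000005413, chr8:75093621-75100589, plus strand), was at 34.2 and 49.2 CPM in WT and at 46.1 and 34.9 CPM in DDI2-KO. The DDI2-KO libraries again fell within the WT range (log2 fold change -0.04, 95% interval -0.55 to 0.47, edgeR adjusted p of 0.931). A missed threshold does not show that levels were equal, and the intervals give the range of differences these libraries leave possible.

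**Figure D2:**
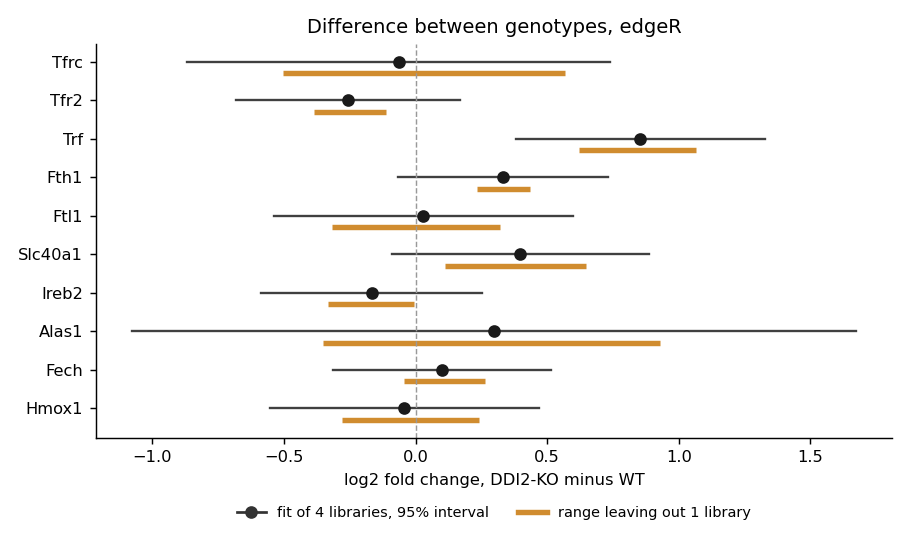
Log2 fold change of each gene (DDI2-KO minus WT) in edgeR, with points and black lines for the fit of 4 libraries and its 95% interval, and orange bars for the range when 1 library is left out. The interval of Trf, 0.38 to 1.33, lies above 0 before adjustment for the number of genes, and those of the other 9 genes include 0.

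Per length of the principal transcript, ferritin heavy chain was the most abundant of the 10 in WT, with a mean of 1043 CPM per kilobase, and the light chain followed with 557. Transferrin had 289 CPM per kilobase, Tfr2 78.5 and Slc40a1 66.1, and from Fth1 down to Slc40a1 no gene overlapped its neighbour between the WT libraries. Reads set aside as ambiguous, or as aligned to more than 1 place, are missing from these values. Trf and Ftl1, whose counts have the limits given above, may thus be higher than shown, and their places in the order are not settled. Alas1 (38.5 CPM per kilobase), Fech (31.3) and Hmox1 (26.6) overlapped between WT libraries and have no settled order, and Ireb2 (14.6) was below them. Tfrc was the least abundant, with 3.32 CPM per kilobase. In DDI2-KO, Trf (442 and 604 CPM per kilobase in the 2 libraries) and Ftl1 (691 and 446) overlapped, and Slc40a1 (70.9 and 103) was above Tfr2 (70.6 and 60.8). With the length of all annotated exons in place of the principal transcript, Ftl1 came before Fth1 in WT (402 against 279 CPM per kilobase), so the order of the ferritin chains depends on the transcript taken.

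The wider pathway was read from 8 lists of genes of iron uptake, storage, export, sensing and heme and iron-sulfur metabolism, which include the 10. Of 73 genes in the files 68 were tested, and 0 had an adjusted p under 0.05 in edgeR. At an unadjusted p under 0.05 there were 16 (23.5%, against 23.5% of all genes tested), and DESeq2 called 8 (11.8%, background 6.86%). In limma, the test the study used, 0 were called by limma-voom and 0 by limma-trend, against 136 and 139 of all genes. The median log2 fold change of the 68 was 0.15, with 45 above and 23 below 0, which is 66.2% above 0 against 48.7% of all genes tested. Both DDI2-KO libraries were higher than either WT library in 26 of the 68 (38.2%, background 28.0%), and lower in 8 (11.8%, background 27.7%). At an adjusted p under 0.1 there were 9 of 68 (13.2%, background 9.35%), 7 higher and 2 lower. Signs of RNA composition moved with genotype too. The nuclear RNA Malat1, named after its values were seen, was at 56.3 and 59.7 CPM in WT and at 20.2 and 27.2 CPM in DDI2-KO (edgeR adjusted p of 0.0224), and reads on no gene, relative to reads on genes, made up 5.11% and 4.70% in WT and 2.53% and 3.65% in DDI2-KO. Their part in the pathway values was not tested.

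The 2 lower ones belong to uptake and to heme breakdown. Steap3, an endosomal ferrireductase that acts after transferrin uptake, was at 27.6 and 20.6 CPM in WT and at 14.4 and 12.7 CPM in DDI2-KO (log2 fold change -0.83, standard error 0.20, edgeR adjusted p of 0.0665). It had the lowest value of the 9 uptake genes tested, and Trf the highest. Blvrb, biliverdin reductase B, was at 59.6 and 57.7 CPM in WT and at 40.0 and 34.9 CPM in DDI2-KO (log2 fold change -0.65, standard error 0.16, edgeR adjusted p of 0.0668). DESeq2 called both, against 6.86% of all genes, and limma-voom and limma-trend called neither. In neither gene did the groups overlap (both DDI2-KO libraries were lower in 27.7% of all genes tested). The 2 genes were picked by adjusted p in the same counts, so the lack of overlap adds no support.

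Of the 7 higher ones, 3 were of the 19 tested in the mitochondrial iron and iron-sulfur list and 2 of the 13 in the list of heme breakdown, binding and transport, and the others were Trf and Urod. Glrx5, a glutaredoxin that passes on iron-sulfur clusters, was at 13.5 and 16.8 CPM in WT and at 34.9 and 24.9 CPM in DDI2-KO (log2 fold change 0.98, standard error 0.21, edgeR adjusted p of 0.0556). This was the highest of the 19, of which 12 were above and 7 below 0, and the lowest was Slc25a37, the mitochondrial iron importer mitoferrin-1 (-0.46, edgeR adjusted p of 0.259). Fdx1, a ferredoxin (0.88, edgeR adjusted p of 0.0696), and Nfs1, the cysteine desulfurase that supplies sulfur (0.62, edgeR adjusted p of 0.0729), were named after their values were seen. Among the 13 genes of heme breakdown, binding and transport, the porphyrin transporter Abcb6 had the largest log2 fold change, 1.31 (standard error 0.32, edgeR adjusted p of 0.0667), from 1.10 and 1.20 CPM in WT to 2.55 and 3.18 CPM in DDI2-KO. Abcg2, an exporter that also carries porphyrins and was named after its values were seen, was at 33.0 and 28.8 CPM in WT and at 52.5 and 48.1 CPM in DDI2-KO (0.70, edgeR adjusted p of 0.0609). Among 9 heme synthesis genes, Urod, uroporphyrinogen decarboxylase, was highest, at 54.6 and 53.5 CPM in WT and 89.2 and 74.9 CPM in DDI2-KO (0.60, edgeR adjusted p of 0.0830). DESeq2 called Glrx5, Fdx1, Nfs1, Abcg2 and Urod, and not Abcb6. Neither limma-voom nor limma-trend called any of these genes.

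**Figure D3:**
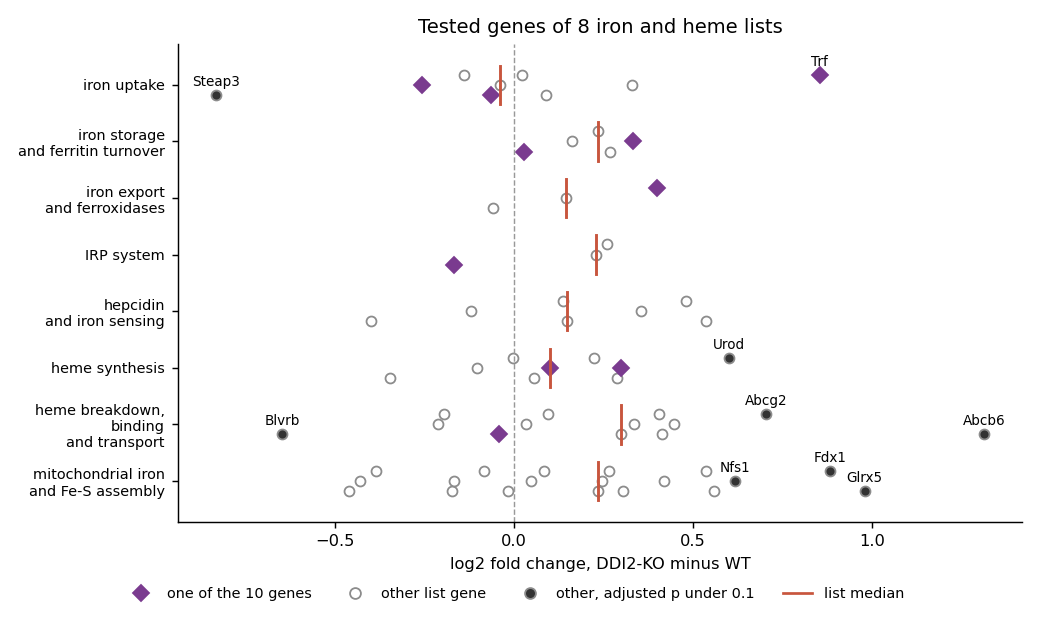
Log2 fold change (DDI2-KO minus WT) of the tested genes of each iron and heme list, with purple diamonds for the 10 genes, filled circles and names where the edgeR adjusted p was under 0.1 (Trf is also named) and a red line at the list median. Abcb6 at 1.31 and Steap3 at -0.83 are the extremes, and 7 of the 8 list medians lie above 0.

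The other lists were described in the same way. All 5 storage genes tested had log2 fold changes above 0, from 0.03 for Ftl1 to 0.33 for Fth1, with 0 called in edgeR. Of 3 export genes, the plasma ferroxidase Cp was lowest at -0.06 and Slc40a1 highest, and of 3 genes of the iron regulatory proteins, Ireb2 was lowest and Aco1, which encodes iron regulatory protein 1, highest at 0.26. In the hepcidin and iron sensing list, Hamp2 was highest at 0.54 and Bmp6 lowest at -0.40, and neither was called (edgeR adjusted p of 0.707 and 0.349). Hamp, hepcidin itself, was at 565 and 1494 CPM in WT and at 1452 and 1421 CPM in DDI2-KO, so WT library 1 stood apart from the other 3. Without WT replicate 2, which leaves that library alone in its group, Hamp and Hamp2 were the 2 list genes called.

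The summed level of the red cell markers was lower in DDI2-KO, and 1 of the 5 tested was called in edgeR. All 5 had log2 fold changes below 0, with a median of -1.15, where 48.7% of all genes tested were above 0. Their list summed to 110 and 211 CPM in WT and to 79.4 and 68.4 CPM in DDI2-KO. Hba-a1, an alpha globin, fell by 1.94 on the log2 scale (edgeR adjusted p of 0.0338, from 9.49e-08 to 0.213 over the alternatives), and its near-identical copy Hba-a2 makes the split between them uncertain. The red cell membrane genes Slc4a1 and Epb42 were at or below 0.356 CPM in every library. Alas2, the heme synthesis gene of red cell precursors, had the lowest value of the heme synthesis list (-0.35, edgeR adjusted p of 0.526), at 22.6 and 42.2 CPM in WT and 28.1 and 22.9 CPM in DDI2-KO. WT library 2, with the highest red cell sum, also had the highest Tfrc, Fech and Hmox1 of the 4 libraries. For Fech the margin was small, 227 CPM against 224 CPM in DDI2-KO library 2. The rest of the 10 genes were highest in other libraries. The part of blood in these values was not tested. Of the sinusoidal endothelial markers, 1 of 8 was called, Stab2, a scavenger receptor, with a log2 fold change of -1.10 (edgeR adjusted p of 0.0288, from 1.79e-05 to 0.109 over the alternatives), while the list summed to 568 and 515 CPM in WT and 543 and 511 CPM in DDI2-KO. Stellate cell markers (0 of 7 called) summed to 463 and 509 CPM in WT and 439 and 458 CPM in DDI2-KO, and bile duct markers (0 of 5 called) to 56.4 and 52.8 CPM in WT and 70.4 and 68.7 CPM in DDI2-KO. All 7 stellate cell markers had log2 fold changes below 0, with a median of -0.28. Of the 5 bile duct markers 4 were above 0, with a median of 0.32, and 48.7% of all genes tested were above 0.

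**Figure D4:**
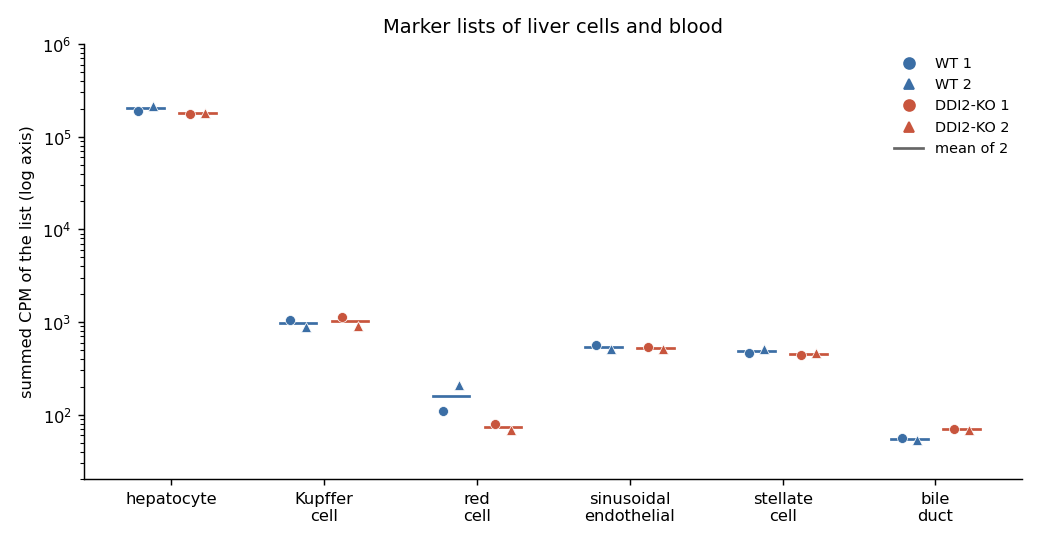
Summed CPM of the marker lists of 6 cell types in each library, on a log axis, with circles for library 1, triangles for library 2, WT in blue and DDI2-KO in red, and a bar at the mean of 2. Red cell markers show the clearest gap, 110 and 211 CPM in WT against 79.4 and 68.4 CPM in DDI2-KO, and hepatocyte markers are the highest in every library.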

How the data were processed

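The authors deposited a raw count per Ensembl gene for each library, with no normalization. The submitters' processing notes name cutadapt 1.8, STAR 2.5.2b, HTSeq 0.6.1 and GRCm38, and the annotation release and the strand setting of the counting are not given in the sources used here. The 5 summary lines (unassigned reads) were left out of library sizes and tests. GENCODE M21 gave symbols for 48349 of the 48709 identifiers. At the depths given above, 3 counts correspond to 0.0880 to 0.133 CPM.

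The counts were scaled by TMM and tested with edgeR 4.0.16 in R 4.3.3 (filterByExpr, glmQLFit with robust estimation, glmQLFTest), with Benjamini-Hochberg adjustment. Standard errors were the log2 fold change divided by the square root of F, and intervals used the fit's total degrees of freedom. The study's moderated test, limma (3.58.1), and DESeq2 1.42.0 were alternatives, beside other scalings, other filters, no robust estimation, a block, a looser threshold, each library left out, and GC and length offsets. The scripts were tested on simulated data.

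The study describes the libraries as biological replicates, and the counts of each pair differed beyond counting error (chi-square divided by its degrees of freedom, 64.7 in WT and 34.8 in DDI2-KO). The genes and lists were chosen with earlier results of these data known. Named genes are the 10, list genes under the threshold, the highest and lowest of each list, called markers, Ddi2, and genes that share sequence with the 10. Exceptions are marked.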

Additional observations from a re-analysis of the deposited data

How the results depend on the processing

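Across 15 alternatives, the direction of Trf, Tfr2, Fth1 and Slc40a1 did not change, and no gene of the 10 other than Trf had an adjusted p under 0.05 in any (lowest 0.102, Slc40a1). The count of the 10 genes called was 1, Trf, instead of 0 in DESeq2, without the low-count filter, at an adjusted p under 0.1 and with the replicate block, and 0 with each library left out. Signs near 0 changed as follows. Tfrc was 0.027 in limma-trend, 0.038 in limma-voom, 0.024 with the replicate block and 0.19 under GC and length offsets, which were chosen after seeing the data and gave 0.14 for Ireb2. Ftl1 was -0.024 with upper-quartile factors and Hmox1 0.0057 with library totals only. With each library left out, the ranges were -0.50 to 0.57 (Tfrc), -0.32 to 0.32 (Ftl1), -0.35 to 0.93 (Alas1), -0.044 to 0.26 (Fech) and -0.28 to 0.24 (Hmox1). Over all genes, 346 calls became 940 (DESeq2), 139 (limma-trend), 136 (limma-voom), 1544 (no filter on low counts, 21099 genes tested), 152 (no robust estimation), 829 (offsets), 1108 (replicate block), 1281 (adjusted p under 0.1) and 153 to 631 with a library left out, 631 without DDI2-KO replicate 2, 153 without WT replicate 1 and 203 without WT replicate 2. Of the calls, 52.6% were higher in the analysis as reported, 60.9% with library totals only, 39.7% with upper-quartile factors and 37.4% without WT replicate 2. Pathway calls, 0 as reported, were 8 (DESeq2), 1 (library totals only, Glrx5), 9 (no filter), 4 (offsets), 8 (replicate block), 9 (adjusted p under 0.1) and 0 to 4 with a library left out, 4 without DDI2-KO replicate 2 (Abcg2, Glrx5, Nfs1 and Urod). Leaving out a library leaves a lone sample assumed to vary like the other group. The cause of these changes was not tested. Same-numbered libraries deviated together by a correlation of 0.06, and the labels state no pairing, so they share only a number. The replicate block gave 0.84 for Trf (adjusted p of 0.0188 in edgeR). Each of the 10 genes had at least 331 reads in every library.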

Other observations

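Of 9 transcription factors of heme and iron genes, 8 had log2 fold changes below 0 and 1 above (48.7% of all genes tested were above 0), with a median of -0.22 against -0.01 for all genes, and 0 of 9 were called in edgeR at an adjusted p under 0.05. The lowest was Ppargc1a, a coactivator that induces Alas1 in fasting liver, at 15.9 and 13.3 CPM in WT and at 7.38 and 8.79 CPM in DDI2-KO (log2 fold change -0.86, standard error 0.20, edgeR adjusted p of 0.0650). DESeq2 called 1 of the 9, against 6.86% of all genes. Bach1, the heme-sensing repressor of Hmox1, was at 24.6 and 32.6 CPM in WT and at 21.1 and 21.8 CPM in DDI2-KO (-0.41, edgeR adjusted p of 0.222), and it was named after its values were seen. Nfe2l1, which encodes NRF1, was the highest at 0.11 (edgeR adjusted p of 0.845).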
